A study of Arabidopsis thaliana with 6 samples.

Results

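The genes described here were transcripts of Arabidopsis thaliana rosette leaves that were at least 3-fold higher in the flu mutant than in the Landsberg erecta wild type (Ler) after both 60 min and 2 h of light, and less than 2-fold higher after 30 min. They were chosen by their measured values, as the difference in log2(signal + 50) between the flu array and the Ler array at each time. A member also had a signal of at least 185, the median of all values, on its brightest array. The rule selected 109 probe sets, which is 0.834% of the 13062 probe sets that reached this floor and a part of 22746 probe sets in all, controls left aside. A probe set is a group of short probes for 1 transcript. In the annotation used, 50 members carried a single gene, 1 carried several genes and 58 carried none and are given as counts and ranges.

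The flu plants carried the allele flu1-1 in the Ler ecotype, and the other plants were Ler with no mutation named. All plants were 3 weeks old, had grown on soil in continuous light, and were kept dark for 8 h before light returned for 30 min, 60 min or 2 h. Each genotype and time was 1 ATH1 array, 6 in all, hybridised with pooled RNA of 2 biological experiments from 5 to 6 plants per sample, and there was no array of plants in the dark. Because the rule used the flu and Ler values at all 3 times, every value of a member below is a description, none was tested, and no spread between replicates stands behind it.

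FLU is a plastid protein that restrains the synthesis of chlorophyll precursors in darkness. Without it the precursor protochlorophyllide accumulates in the dark, and upon illumination it passes energy to oxygen, so that singlet oxygen forms within the chloroplast. Cells under oxidative or heat stress make chaperones that hold or refold damaged proteins. They also make enzymes that reduce reactive carbonyls or attach sugars to foreign or toxic molecules, while transcription factors and ubiquitin ligases adjust defence and hormone responses.

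Across the arrays, the hybridisation controls (RNAs added at a fixed amount) had their lowest geometric mean signal on the flu array of 30 min, 743, against 1077 and 1200 on the other flu arrays and 1213 to 1468 on the Ler arrays. The gene FLU was not analysed here, so the genotype labels of the arrays were not checked against it. Of 8 leaf mesophyll markers 3 had a named probe set, LHCB4.1, RCA and PRK, and each had a signal of at least 10790 on every array. Their summed signal was 44020, 46140 and 39830 in flu after 30 min, after 60 min and after 2 h, against 61330, 53450 and 56740 in Ler. The root marker PYK10, 1 of 4 listed, was at 346.6, 480.7 and 292.8 in flu, against 209.3, 140.5 and 257.2 in Ler. The trichome marker TRY, 1 of 3, was at 169.9, 200.2 and 214.4 in flu, against 211.7, 390.3 and 393.4 in Ler. PYK10 was thus higher and TRY lower in flu at all 3 times. The guard cell marker FMA, 1 of 3, lay between 228.1 and 363.0 over the 6 arrays. Listed markers of flower, phloem and seed had no named probe set in the annotation used. In leaves as a whole, fewer cells of a type and less RNA per cell cannot be told apart. The part of the controls and of the marker sums in the values below was not tested.

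At 30 min the members' median signal was 236.5 in flu, against 152.8 in Ler. At 60 min it was 1055 in flu, against 163.0 in Ler, and at 2 h 1918 in flu, against 148.5 in Ler. The Ler medians thus lay close together while the flu medians were several times larger at the later times. For single members the flu signal of 2 h ranged from 177 to 11204, against 4.80 to 3547 in Ler. The median flu minus Ler difference on the log2 scale was 0.52 at 30 min (lowest -0.71, highest 0.998), 1.96 at 60 min (1.59 to 4.53) and 2.78 at 2 h (1.61 to 6.47). Over all 13062 probe sets past the floor the medians were -0.04, -0.08 and -0.20 in the same order. The lower ends at 60 min and 2 h and the upper end at 30 min are set by the rule.

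**Figure D1:**
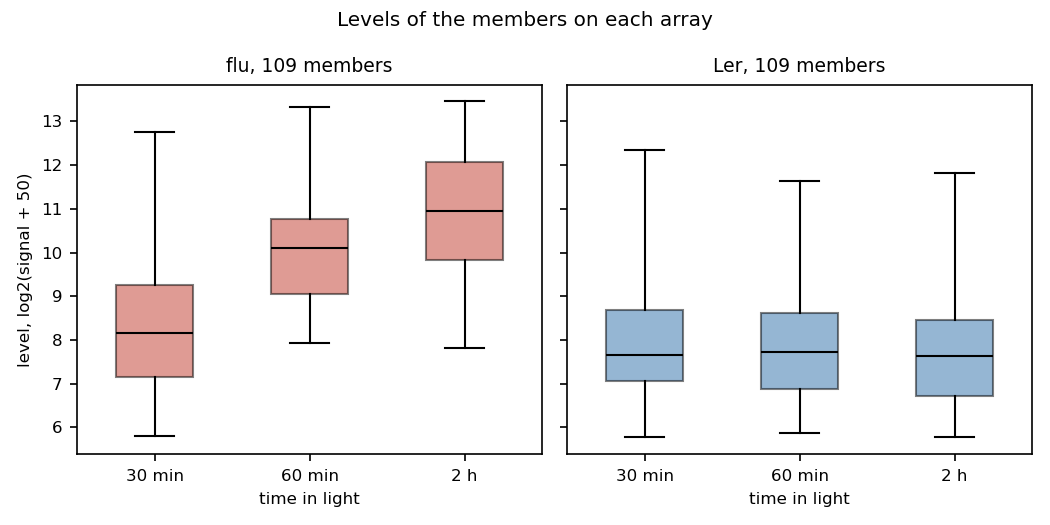
Levels of the 109 members on each array as log2(signal + 50), with the 3 flu arrays in the left panel and the 3 Ler arrays in the right panel. Boxes span the middle 50% of the members with the median as a line, and whiskers reach the lowest and highest member. The flu boxes stand higher at 60 min and 2 h than at 30 min, while the Ler boxes stay at similar heights.

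For scale, 2.98% of the probe sets past the floor were at least 2-fold higher in flu at 30 min and 0.421% at least 2-fold lower. The shares were 6.12% higher and 1.44% lower at 60 min, and 10.1% higher and 5.51% lower at 2 h. In 109 of 109 members the flu signals of 60 min and of 2 h both exceeded all 3 Ler signals. The 3-fold bounds at these times largely fix this count. The flu signal of 30 min was below the highest Ler signal in 39. Neither count was made over all probe sets. Ler signals were under 185 at all 3 times in 54 members (49.5%), against 5.80% of all probe sets past the floor, so for about every other member the Ler side of the difference was dim and depended on the offset of 50.

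Chaperone genes were among the named members. AT2G29500, a small heat shock protein gene, had signals of 16.4, 328 and 4419 in flu after 30 min, after 60 min and after 2 h, against 39.3, 25.1 and 31.5 in Ler. At 30 min flu was the dimmer genotype, and at 2 h its signal was far above each of the 3 Ler arrays, which all stayed under the floor. The difference was -0.43, 2.33 and 5.78 at the 3 times. It was the member with a gene that had the largest gain between 60 min and 2 h, 3.45 on the log2 scale. AT5G51440, also a small heat shock protein gene, had flu signals of 43.9, 724 and 4711, against 16.3, 112 and 82.8 in Ler. Its differences were 0.50, 2.26 and 5.16. Small heat shock proteins bind unfolding proteins and keep them from aggregating.

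AT5G48570, known as ROF2 or FKBP65, encodes a peptidyl-prolyl isomerase of the FKBP family. Its signals were 47.2, 843 and 5577 in flu, against 45.2, 99.5 and 247 in Ler, and its differences were 0.03, 2.58 and 4.25. Both genotypes had more signal at 2 h than at 30 min, with a log2 gain of 5.86 in flu and 1.64 in Ler. Fes1A, a co-chaperone that works with Hsp70, had flu signals of 350, 2472 and 8806, against 449, 513 and 608 in Ler. Unlike the 3 genes before, its Ler signal was well above the floor at each time, so the offset matters less for its differences of -0.32, 2.16 and 3.75.

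The list of heat shock and chaperone genes held 6 genes past the floor, and AT2G29500, AT5G51440 and AT5G48570 were its members. At least 2-fold higher in flu were 1, 4 and 6 of the 6 genes at the 3 times in order. The shares over all probe sets past the floor were 2.98%, 6.12% and 10.1%. The list median was -0.07, 2.29 and 4.21. The small heat shock protein gene AT1G53540 had differences of -0.41, 0.91 and 4.17 and missed the bound at 60 min. The J-domain protein gene AT2G20560, of a family that activates Hsp70, had differences of 1.22, 2.39 and 3.36 and missed the bound at 30 min. AT3G09440, an Hsp70 gene, had flu signals of 1859, 5304 and 13050, against 2090, 4116 and 6299 in Ler, with differences of -0.16, 0.36 and 1.05. Probes of close family members can cross-hybridise, which was not tested.

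**Figure D2:**
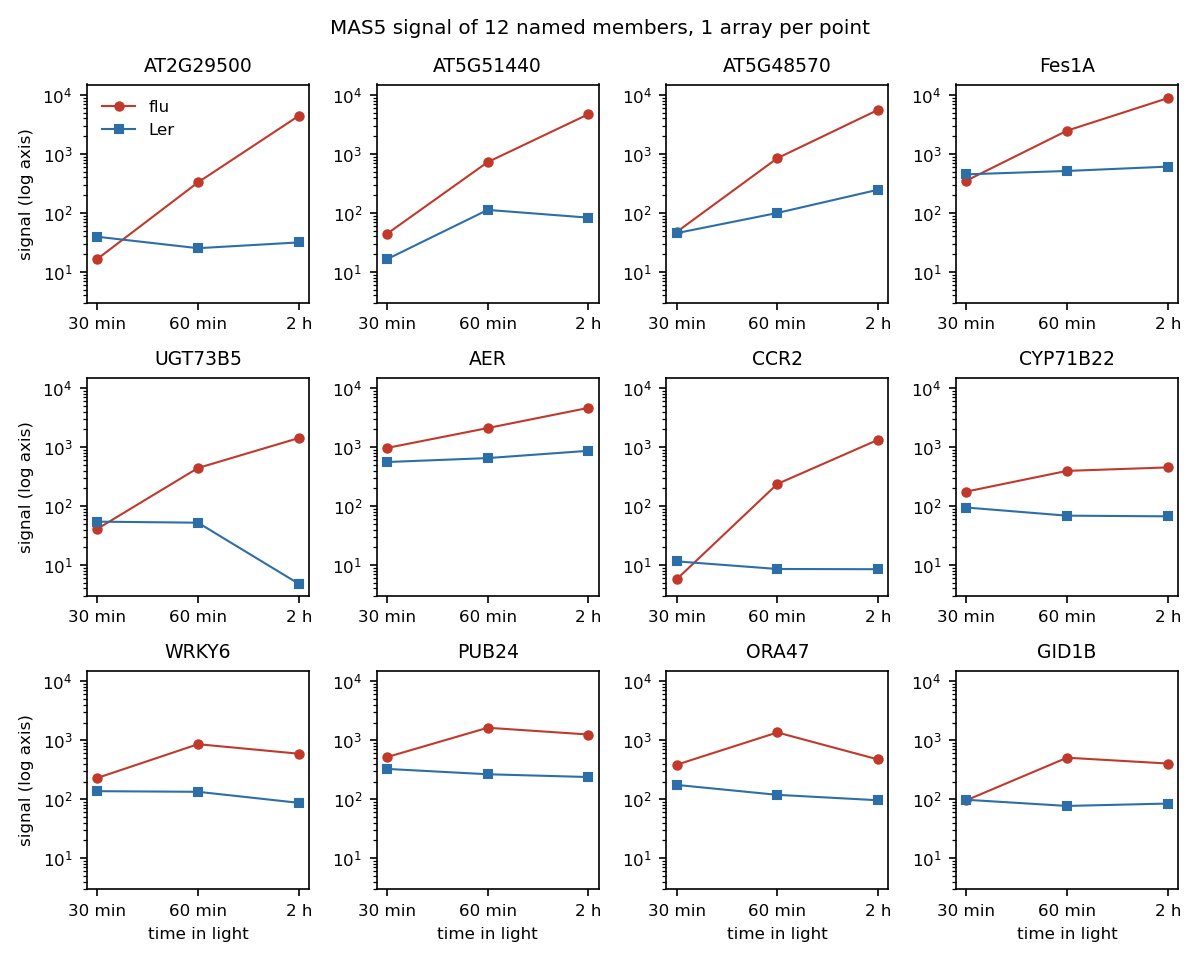
MAS5 signals of 12 named members on a log axis over time in light, with flu as red circles, Ler as blue squares and 1 array per point. In the upper row the flu lines of the chaperone genes climb at both steps. In the lower row WRKY6, PUB24, ORA47 and GID1B have their highest flu signal at 60 min.

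Named members also included enzymes. UGT73B5 encodes a glucosyltransferase that attaches glucose to small molecules. It had flu signals of 40.9, 442 and 1423, against 54.4, 52.2 and 4.80 in Ler, and differences of -0.20, 2.27 and 4.75. The Ler signal of 2 h was the lowest of its 6 arrays, and part of the difference at that time rests on it. CCR2, a cinnamoyl-CoA reductase on the route to lignin, had flu signals of 5.70, 237 and 1332, against 11.5, 8.57 and 8.49 in Ler. Its differences were -0.14, 2.29 and 4.56, and all 3 Ler signals were near background. With an offset of 16 in place of 50 the 2 h difference was 6.54 for AT2G29500, 6.11 for UGT73B5, 5.78 for CCR2 and 5.58 for AT5G51440. These sizes and their order therefore depend on the offset.

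CYP71B22, of the cytochrome P450 monooxygenases, had smaller differences of 0.64, 1.91 and 2.1. Its signals were 176, 395 and 452 in flu, against 94.5, 68.7 and 67.0 in Ler. The peroxidase gene AT5G64120, known as PRX71, had flu signals of 538, 1957 and 1493, against 285, 244 and 185 in Ler. Peroxidases of this class are secreted and act on hydrogen peroxide in the cell wall. Its differences were 0.81, 2.77 and 2.71, so the gap was about as wide at 2 h as at 60 min.

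In the list of UDP-glycosyltransferases UGT73B5 was the only member among 21 genes past the floor. At 2 h 8 of the 21 were at least 2-fold higher in flu and 1 at least 2-fold lower, against 2 and 2 at 60 min and 0 and 0 at 30 min. Over all probe sets past the floor 10.1% were higher and 5.51% lower at 2 h. The shares were 6.12% and 1.44% at 60 min, and 2.98% and 0.421% at 30 min. UGT76E12 stood at 0.13 at 60 min and 4.34 at 2 h, UGT73B4 at 0.04 and 2.37, UGT73C1 at 0.24 and 2.32, and UGT87A2 at 0.14 and 1.95. All 4 were thus less than 2-fold apart at 60 min, when UGT73B5 was at 2.27. For UGT76E12, UGT73B4 and UGT73C1 both genotypes were dim at 60 min, with flu signals of 20.5, 6.77 and 46.6. Their Ler signals at 2 h were 5.25, 9.04 and 14.3, so the sizes at 2 h depend on the offset. Of 7 glutathione S-transferase genes none was a member. GSTU25 had differences of -0.71, -0.05 and 2.64, GSTU22 had -0.50, 0.64 and 2.48, and GSTU27 had -0.07, -1.17 and -1.82. These enzymes join glutathione to reactive molecules. At 2 h the Ler signals of GSTU25 and GSTU22 were 45.65 and 8.43, so the sizes of their differences depend on the offset too. Of 9 cytochrome P450 genes, CYP71B23 was the only other gene at least 2-fold higher at 2 h, at 1.24. None of the 3 genes of mitochondrial stress was a member, and AT2G21640 stood at -0.03, 0.39 and 3.67 and NDB2, an alternative NADH dehydrogenase, at -0.18, 1.05 and 2.91.

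Other named members encode regulators. ORA47, an AP2/ERF transcription factor of the jasmonate response, had flu signals of 385, 1359 and 473, against 175, 119 and 96.2 in Ler. The flu signal of 60 min stood above the other 5 arrays, and that of 2 h was close to that of 30 min. Its differences were 0.95, 3.06 and 1.84, the largest drop between 60 min and 2 h of any member, -1.22 on the log2 scale. At 30 min it lay just under the 2-fold bound and would have passed it with an offset of 16, at 1.07. WRKY6, a WRKY transcription factor linked to senescence and defence, had flu signals of 230, 859 and 593, against 137, 134 and 87.0 in Ler. Its differences were 0.58, 2.31 and 2.23. PUB24, a U-box ubiquitin ligase that marks proteins for degradation, had flu signals of 518, 1633 and 1253, against 327, 266 and 238 in Ler. The differences were 0.59, 2.41 and 2.18.

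GID1B, a receptor for gibberellin, had nearly equal signals in both genotypes at 30 min. The flu values were 95.9, 507 and 404 and the Ler values 98.1, 77.1 and 84.6, which gave differences of -0.02, 2.13 and 1.75. TET9, a tetraspanin of the cell membrane, had flu signals of 242, 457 and 216, against 154, 109 and 35.1 in Ler. Its difference was 1.67 at 60 min and 1.64 at 2 h, although the flu signal of 2 h was below that of 30 min, because the Ler signal of 2 h was lower too. For this gene the difference at 2 h thus combined a flu signal near its start with a low Ler signal.

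Of 5 WRKY genes past the floor, WRKY53 (2.98, 3.32 and 2.16) and WRKY22 (1.79, 2.74 and 1.40) were already over 2-fold higher at 30 min, and WRKY20 and WRKY47 stood at -0.40 and -0.15 at 2 h. In the jasmonate list OPCL1, an enzyme of jasmonate synthesis, had 1.74, 2.59 and 3.41. JMT, which methylates jasmonate, had -0.10, -0.06 and 1.99. Of 10 ubiquitin ligase genes, 2, 4 and 5 were at least 2-fold higher at the 3 times in order and 0, 0 and 1 at least 2-fold lower. Over all probe sets past the floor 2.98%, 6.12% and 10.1% were higher and 0.421%, 1.44% and 5.51% lower. The lower gene was ATL5, with -0.03, -0.36 and -1.94. PUB23 (2.62, 4.09 and 2.22) and PUB22 (1.08, 1.05 and 1.39) were over the 30 min bound. PUB19 (-0.28, 1.42 and 3.4) and PUB43 (-0.19, 0.74 and 2.02) were under the 60 min bound. Of these 5 U-box genes PUB24 alone met the member rule, which restates how members were chosen. PUB25 and PUB49, also past the floor, were under the 60 min bound. Of 6 genes in the lipid and membrane list, TET8 had 1.73, 1.78 and 1.83 and TET10 had -0.17, -0.60 and -1.14. GRX480, a glutaredoxin of the salicylate response, stood just outside the 30 min bound, with 1.02, 3.81 and 4.31.

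Over 24 gene lists 147 different genes were past the floor, and 9 of them, spread over 7 lists, were members. Of all probe sets past the floor 0.834% were members, and the lists were chosen with earlier results of these data known. Of the 147 genes 17, 30 and 48 were at least 2-fold higher in flu at the 3 times in order. The shares over all probe sets past the floor were 2.98%, 6.12% and 10.1%. The lists of calcium sensors, cell wall remodelling and senescence and autophagy, with 10, 31 and 10 genes past the floor, held no member. Those of bZIP factors and of endoplasmic reticulum folding, with 5 and 3 genes, held none either. At a member share of 0.834%, lists of such sizes would often hold no member. The lack of members in these lists, or in those of glutathione S-transferases and mitochondrial stress, is no result about them.

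Several of the largest differences belonged to loci that are given here by locus number alone. Their families were not assigned here, so genes of the families above, chaperones included, may be among them. AT1G54050 had flu signals of 136, 1146 and 4717, against 109, 171 and 141 in Ler, with differences of 0.22, 2.43 and 4.64. AT2G32150 had 425, 1166 and 6571 in flu, against 311, 322 and 260 in Ler, with differences of 0.40, 1.71 and 4.42. Between 60 min and 2 h the difference grew by 2.21 for AT1G54050 and by 2.71 for AT2G32150, among the 8 largest gains of members with a gene. AT3G51450 had 405, 1871 and 6492 in flu, against 513, 376 and 499 in Ler, and AT5G25450 had 133, 714 and 3992 in flu, against 153, 155 and 302 in Ler. Their differences at 2 h were 3.58 and 3.52.

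Other loci had most of their difference by 60 min. AT5G10695 had flu signals of 705, 3172 and 4520, against 337, 281 and 172 in Ler, and differences of 0.96, 3.28 and 4.36. AT1G61890 had 1119, 3871 and 6782 in flu, against 589, 440 and 391 in Ler, and differences of 0.87, 3.00 and 3.95. In both the Ler signals were lower at 2 h than at 30 min while the flu signals were highest at 2 h. AT4G27654 had 191, 1177 and 872 in flu, against 77.5, 33.4 and 51.8 in Ler, and its 3.88 at 60 min was the largest difference at that time among members with a gene. At 2 h it stood at 3.18. AT5G25930 had differences of 0.15, 2.63 and 3.06, and AT5G55050 had 0.36, 2.65 and 2.58. AT4G17900 had flu signals of 2514, 4838 and 4092, against 1456, 885 and 644 in Ler, and differences of 0.77, 2.39 and 2.58.

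AT1G22810 behaved like ORA47, with flu signals of 214, 491 and 177, against 105, 16.5 and 9.97 in Ler. Its flu signal was lower at 2 h than at 30 min, and its difference of 1.92 at 2 h, after 3.02 at 60 min, depended on Ler signals near background. AT1G69840, with signals far above the floor on all 6 arrays, had 3792, 6722 and 6658 in flu, against 1874, 1806 and 1533 in Ler, with differences of 0.998, 1.87 and 2.08. The remaining named loci were AT4G20830 (0.98, 1.96 and 2.92), AT2G42760 (-0.25, 1.69 and 2.95), AT2G32020 (-0.25, 1.67 and 3.12), AT1G67060 (0.99, 1.88 and 1.80), AT1G10340 (0.95, 1.68 and 1.68) and AT1G51620 (-0.03, 1.90 and 1.61).

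The 59 members with no or several genes covered a similar range, with differences of 1.59 to 4.53 at 60 min and 1.62 to 6.47 at 2 h. Their medians at the 3 times were 0.51, 1.95 and 2.86, against 0.57, 2.01 and 2.70 for the 50 members with a gene. The 2 highest differences at 2 h of all members were among them. One of these had flu signals of 17.6, 1306 and 8633, against 24.7, 41.3 and 48.3 in Ler. The other had 14.3, 1599 and 6425 in flu, against 11.0, 83.0 and 29.6 in Ler. Both 2 h differences were thus above that of AT2G29500, and neither probe set has a name in the annotation used.

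For most members the difference was wider at 2 h than at 60 min. This held in 85 of 109, with a median change of 0.71 on the log2 scale and a range of -1.22 to 3.45. Over all 13062 probe sets past the floor the flu minus Ler difference was higher at 2 h in 5342, and the median change was -0.10. In 46 members, 42.2%, the difference at 2 h was at least 2-fold above that at 60 min, against 5.54% of all probe sets past the floor. Among probe sets already at least 2-fold higher at 30 min and 3-fold at both later times this share was 11.0%. Among those under 2-fold at 30 min and 3-fold higher at 2 h but not at 60 min it was 77.7%. The rules of these sets use both differences. AT2G29500, AT5G51440, AT5G48570, Fes1A, UGT73B5 and CCR2 were among the 46. The median differences of all 46 were 0.16, 1.95 and 4.0, and the median signal of the 46 at 2 h was 3686 in flu, against 137.3 in Ler. In 61 members, WRKY6, PUB24, CYP71B22, GID1B and TET9 among them, the differences of 60 min and 2 h were within 2-fold of each other, with medians of 0.62, 1.96 and 2.24. ORA47 and AT1G22810 were the 2 members in which the difference was at least 2-fold smaller at 2 h.

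**Figure D3:**
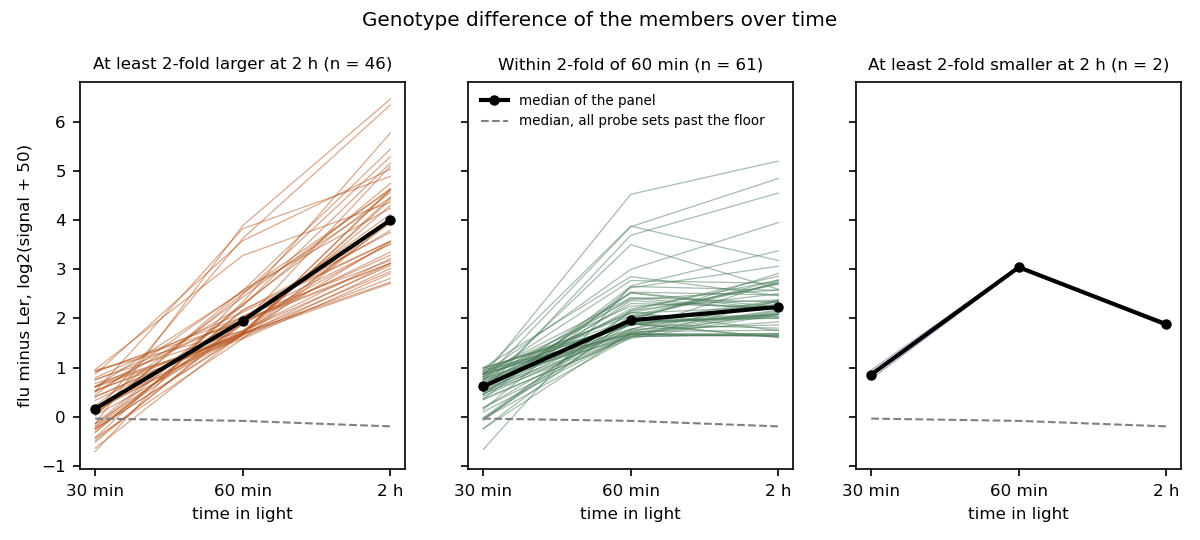
Flu minus Ler difference on log2(signal + 50) of each member over time in light, split into members whose difference at 2 h was at least 2-fold larger than at 60 min (46), within 2-fold (61) or at least 2-fold smaller (2). Thin lines are members, the thick line is the median of the panel and the dashed line the median of all probe sets past the floor. The left and middle medians are 1.95 and 1.96 at 60 min, and 4.0 and 2.24 at 2 h, a gap that the split itself produces.

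At 30 min 49 of the 109 members (45.0%) were at least 1.5-fold higher in flu, though under the bound of 2-fold, against 6.68% of all probe sets past the floor. These 49 had a median difference of 2.58 at 2 h, and in 13 of them the difference at 2 h was at least 2-fold above that at 60 min. In 24 members flu was the lower genotype at 30 min. Their median difference at 2 h was 3.45, and 16 of the 24 had the gain of at least 2-fold. The 36 members in between had a median of 2.80 at 2 h, with 17 of them gaining at least 2-fold. At 2 h the median Ler signal was 68.4 in the 24, 166.6 in the 36 and 209.2 in the 49. The median flu signal was 1674, 2088 and 1802 in the same order. At 2 h the 24 thus had the lowest median Ler signal, where the difference depends on the offset, and the lowest median flu signal. From 60 min to 2 h their median log2 change was 1.60 in flu and 0.11 in Ler. It was 0.63 and -0.12 in the 36, and 0.24 and -0.29 in the 49. What lay behind the wider difference of the 24 was not tested. Fes1A, AT2G29500, UGT73B5 and CCR2 were among the 24, and ORA47, AT5G64120 and AT5G10695 among the 49. All these differences come from the same 6 arrays, and the changes share the array pair of 60 min.

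**Figure D4:**
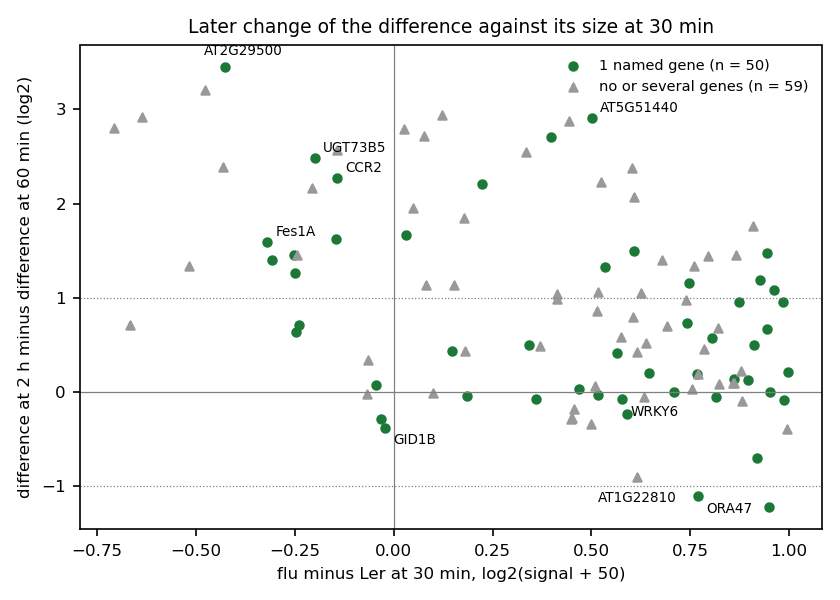
Change of the flu minus Ler difference from 60 min to 2 h (vertical axis, log2) against the difference at 30 min (horizontal axis, log2(signal + 50)) for the 109 members, with green circles for members with 1 gene and grey triangles for the others. Dotted lines mark a 2-fold change in either direction. ORA47 and AT1G22810 lie below the lower dotted line, and AT2G29500 has the largest change at 3.45.

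Within each genotype the course was described from the same arrays. In flu 89 of the 109 members had at least 2-fold more signal at 2 h than at 30 min and 0 at least 2-fold less, against 7.43% and 4.63% of all probe sets past the floor. The median log2 change in flu was 1.62 between 30 min and 60 min, 0.54 between 60 min and 2 h, and 2.21 over the whole span. The flu signal was highest at 2 h in 77 members (70.6%) and at 60 min in 32 (29.4%). Over all probe sets past the floor these shares were 25.9% and 24.7%. Between 60 min and 2 h the flu signal was at least 2-fold higher in 40 members and at least 2-fold lower in 3. Over all 13062 probe sets past the floor the counts were 572 and 240.

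In Ler 6 members had at least 2-fold more and 8 at least 2-fold less signal at 2 h than at 30 min. The shares over all probe sets past the floor were 1.34% and 1.4%. The median log2 change of the members in Ler was -0.23 over this span, against -0.02 for all probe sets past the floor. AT5G48570 (1.64) and AT5G51440 (1.00) were among the 6, and AT1G22810 (-1.37), TET9 (-1.26) and AT4G17900 (-1.12) among the 8. For these 3 genes the lower Ler signal at 2 h accounts arithmetically for part of the difference, while for the 2 chaperone genes the higher Ler signal makes it smaller.

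The members were set beside genes that differed earlier or later. The 237 probe sets already at least 2-fold higher at 30 min, and 3-fold at both later times, had median differences of 1.93, 2.90 and 2.60. The 461 that were 3-fold higher at 2 h alone, with less than 2-fold at 30 min, had 0.03, 0.72 and 2.22. At 60 min the members had 1.96 and at 2 h 2.78. Their flu signal was highest at 2 h in 70.6%, against 25.3% of the earlier set and 95.4% of the later set, and at 60 min in 29.4%, against 65.8% and 3.47%. Ler signals under 185 at all 3 times occurred in 49.5% of the members, against 37.6% of the earlier and 35.1% of the later set. A further 33 probe sets were 3-fold higher at 60 min and less at 2 h, with medians of 0.47, 1.77 and 1.2. The rules of these sets use the same differences, so the figures describe the sets and test nothing.

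Some members lie near each other in the RefSeq gene order, and how often members would do so by position alone was not computed. On chromosome 2 AT2G32150 and AT2G32190, the latter named after its values were seen, have 3 genes between them. The member AT2G32020 lies farther off, outside the window of 5 genes used to find neighbours. The run of 17 protein-coding genes described here was extended past that window and reaches from AT2G32020 to AT2G32190. AT2G32190 had flu signals of 230, 844 and 1976, against 95.3, 216 and 167 in Ler, and differences of 0.94, 1.75 and 3.22. In the same run AT2G32030 had differences of 3.41, 4.28 and 4.49 and AT2G32140 had 1.37, 2.73 and 4.17. Both were over the bound at 30 min and so are no members. Between these 5 genes lay 6 genes past the floor that were within 2-fold at all 3 times, with values from -0.55 to 0.33. One further gene, AT2G32050, was under the floor, and 5 had no named probe set. With an offset of 100 none of AT2G32020, AT2G32150 and AT2G32190 met the rule, and after quantile normalization AT2G32150 alone did.

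**Figure D5:**
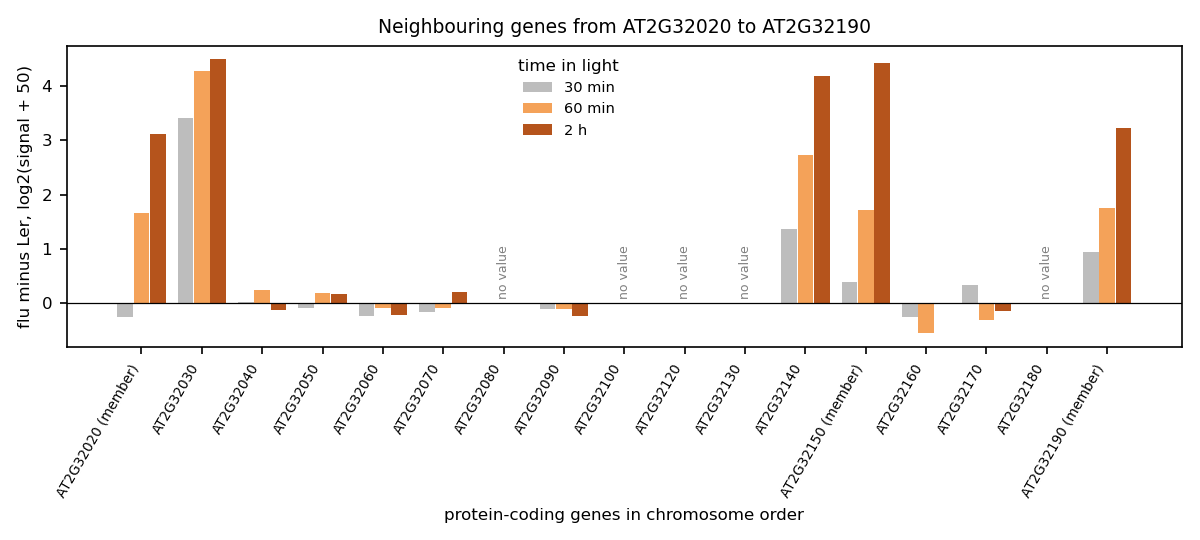
Flu minus Ler difference on log2(signal + 50) at 30 min (grey), 60 min (light orange) and 2 h (dark orange) for 17 neighbouring protein-coding genes of chromosome 2, in gene order with even spacing. The 3 members are marked, AT2G32050 was under the signal floor, and genes without a named probe set are labelled as having no value. The 5 genes with tall bars stand as adjacent pairs (AT2G32020 with AT2G32030, AT2G32140 with AT2G32150) and as AT2G32190 alone, and the measured genes between them have bars near 0.

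On chromosome 5 AT5G25440 and AT5G25450 are adjacent. AT5G25440, also named after its values were seen, had flu signals of 561, 1354 and 1722, against 267, 289 and 219 in Ler, and differences of 0.94, 2.05 and 2.72. Its neighbour AT5G25450 had -0.15, 1.90 and 3.52, a lower start and a higher end. AER (AT5G16970), an alkenal reductase that detoxifies reactive carbonyls from oxidised lipids, stands in a row of related genes and was named here for that row. Its signals were 965, 2101 and 4626 in flu, against 558, 651 and 865 in Ler, with differences of 0.74, 1.62 and 2.35. The probe set shared by AT5G16980 and AT5G17000, the member with several genes, had 180, 461 and 439 in flu, against 83.4, 108 and 59.7 in Ler. Its differences were 0.78, 1.70 and 2.16. Of the genes around AER, AT5G16960 had 0.06, 1.01 and 1.89, AT5G16980 on its own probe set had -0.05, 1.04 and 1.79, and AT5G16990 had 0.18, -0.14 and 0.45. Near-identical copies may share signal here, so the split between these genes is uncertain.

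Membership turned on small distances for some genes. At the 30 min bound AT1G69840 (0.998) and AT1G67060 (0.986) were just inside and SGT1A, a partner of Hsp90 in plant immunity, was just outside at 1.008. At the 60 min bound AT5G12010 was inside at 1.587, and unnamed probe sets at 1.581, 1.579 and 1.578 were outside. At the 2 h bound AT1G51620 (1.614) and AT1G75860 (1.642) were inside, and AT1G18740 (1.567) and AT4G11000 (1.495) outside. The floor left out no probe set that met the other bounds, and the dimmest member, AT1G14780, reached 274.1 on its brightest array. With another offset, 16 or 100, or with quantile normalization, 91, 71 and 97 of the 109 members still met the rule. The members that met it under all 3 settings were 58, of which 21 have a gene. AT2G32190 did not meet the rule under any of the 3. ORA47 and AT1G10340 did not with either offset, and AT2G32020 did not with an offset of 100 or after quantile normalization. AT4G27654 and AT1G69840 did not with an offset of 16 or after quantile normalization. With an offset of 16 AT5G10695, AT4G20830, AT1G67060 and AT5G25440 also dropped out, and after quantile normalization AT1G14780. With an offset of 100 AER, CYP71B22, GID1B, TET9, AT2G32150, AT2G42760, AT1G22810, AT1G51620, AT5G12010, AT1G75860 and AT1G14780 dropped out. Only genes named in this report are listed here. In all, 12 members with a gene were lost with an offset of 16, 20 with 100 and 5 after quantile normalization.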

How the data were processed

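Per the labels, total RNA of rosette leaves was pooled over 2 biological experiments, labelled with biotin from 20 µg and hybridised to Affymetrix ATH1 arrays, 1 per genotype and time. The deposited table holds an intensity for each probe set, not on a log scale. MAS5 is the software in the submitters' processing notes, and its version is not given in the sources used here. The 2% trimmed mean of every array was 500.0, so the authors had scaled the arrays, and no further scaling was done. MAS5 makes dim values noisy, and having 1 array per group limits the precision. Of 22810 probe sets 64 controls were left out. Names came from the platform annotation and from RefSeq (TAIR10.1), in which 13436 of 13513 probe sets with 1 gene matched, and the RefSeq order gave the neighbours.

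Differences of log2(signal + 50) were computed with pandas 2.3.3 and numpy 2.4.6 in Python 3.11.15, and plots drawn with matplotlib 3.10.9. The offset makes log2 differences of dim genes smaller. The script that applies the rule was tested on simulated data with planted differences. No difference between flu and Ler was tested, since the rule used every contrast. The members, the 24 lists and the alternatives were chosen with earlier results of these data known.

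Genes named were members with 1 gene: the 12 largest differences at 2 h and at 60 min, the 8 largest gains and losses between them, the 5 highest and 5 lowest differences at 30 min, the 5 brightest in flu, every list gene, and the 3 probe sets either side of each bound. Other genes were added for some of the lists, mainly those with the largest differences at 2 h in size. Other lists, such as calcium sensors and cell wall remodelling, were given as counts only. From the lists, 8 genes were removed whose symbol only resembles that of the family (such as CYP71, a cyclophilin). Sequences were not used here.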

Additional observations from a re-analysis of the deposited data

How the results depend on the processing

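The number of members, 109, was 141 with an offset of 16, 90 with 100 as offset, 103 after quantile normalization, 109 without the floor, 91 with the floor at the 75th percentile (591) and 142 with the 3-fold bound at 60 min alone, all within 1.5 times. It was 355 with a bound of 2-fold at both later times, 49 with 4-fold, 60 with a bound of 1.5-fold at 30 min and 570 with the 3-fold bound at 2 h alone, as wider or narrower bounds must give. The median change of the difference from 60 min to 2 h, 0.71, was 0.97 with an offset of 16, 0.63 with 100 as offset, 0.68 after quantile normalization, 0.98 with the higher floor and 0.71 without a floor. It was above 0 in each of these settings, over members that were not all the same.

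With an offset of 16, 18 members were lost, all at the 30 min bound, and 50 others came in. With 100, 38 were lost, 33 of them at the 60 min bound and 12 at the 2 h bound, some at both, and 19 came in. Quantile normalization lost 12 and added 6. Dim Ler signals limit the size of the differences. The promoter motif search was not run. The deposited values without rescaling are the reported setting.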
